A study of Mus musculus with 6 samples.

Results

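Every ribosome in the cytosol is built from ribosomal RNA and about one copy each of a fixed set of ribosomal proteins, and the genes of those proteins were measured here in mouse bone marrow cells cultured with and without extra potassium. By name alone, genes beginning with Rpl or Rplp were counted with the large subunit, which forms the peptide bond. Those beginning with Rps, with Rpsa, were counted with the small subunit, which reads the mRNA. Their mRNAs are among the best known carriers of a terminal oligopyrimidine tract, a run of C and T at the transcription start, through which the kinase complex mTORC1 and the RNA-binding protein LARP1 regulate their translation and stability. In blood-forming tissue, shortage of a single ribosomal protein is known to affect some lineages more than others.

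The members were the rows of the deposited count table whose symbols follow the Rpl, Rps or Rplp pattern or are Rpsa, with a mean of at least 100 counts over the 6 libraries. Of 83 rows with such a symbol, 75 reached that minimum, out of 19162 genes in the table. The large subunit gave 46 of them and the small subunit 29. All 75 passed the filter on low counts. The 8 rows below the minimum were Rps29, Rpl36, Rpl23a, Rps23, Rps13, Rps27, Rpl3l and Rpl39l. The label fits the data in that all but 1 of the 75 rows are annotated as protein-coding genes; Rps4l is annotated as a transcribed processed pseudogene.

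Marrow of C57BL/6J mice was cultured over 4 days in 40 ng/mL GM-CSF, the cytokine that drives myeloid growth in such cultures, and the series title calls the product BM-MDSCs, suppressor cells of the myeloid line. The KCl group received an additional 34.7 mM potassium chloride, and the control group received none; both groups had GM-CSF throughout. Each group had 3 RNA-seq libraries, numbered 1, 2 and 4, with 14118724 to 21694831 counted reads. No label says whether libraries of a group came from separate mice or cultures, and the p-values below rest on a spread between libraries that could be purely technical. The culture's identity markers were present: Itgam, Ly6c2, S100a8, S100a9, Csf2ra, Csf2rb and Ptprc all averaged at least 293 CPM (counts scaled by library size) in both groups.

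The libraries numbered 4 stood apart. Over the 8231 genes with a mean of at least 300 counts, the average CPM of KCl 4 and control 4 followed the average of the other 4 libraries with an SD of 0.00953 on the log2 scale, where counting noise alone would give 0.0441, and where the other 14 pairs of libraries gave 0.123 to 0.262. Over 67 ribosomal protein genes that SD was 0.0035, against noise of 0.0309. KCl 4 and control 4 were therefore not independent of the other libraries. The 6-library p-values and the SDs count them as independent, and so do not measure the spread between independent libraries. The main results are given with and without them, while subunit shares, marker sums and ratios cover all 6.

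Which ribosomal protein genes responded to potassium? With all 6 libraries, 29 of the 75 genes were lower in KCl, 0 were higher and 46 did not pass (edgeR quasi-likelihood test, Benjamini-Hochberg adjusted p under 0.05 over all 13326 genes tested). Over all those genes, 10.5% were called lower and 12.4% higher, 22.9% in all. Log2 fold changes, KCl minus control, were below 0 in 69 of the 75, with a median of -0.14, against -0.00452 over all genes tested. In 38 of the 75 genes all 3 KCl libraries lay below all 3 control libraries, against 18.4% of all genes tested. Without both libraries of number 4, 0 of the 75 passed, against 0.458% of 13525 genes tested. In that fit 73 of the 75 were below 0, and the median was -0.25. There 40 of the 75 had an unadjusted p under 0.05, as had 4037 of the 13525 genes. At an unadjusted p under 0.05 the 6-library fit had 34 of the 75 lower and 1 higher, and 4564 of all 13326 genes in either direction. DESeq2 called 25 of the 75 lower and 1 higher, and 2615 of 19162 genes in either direction. The 1 higher was Rpl22l1 in both cases. Words such as lower and passed refer to the 6-library fit unless stated.

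**Figure D1:**
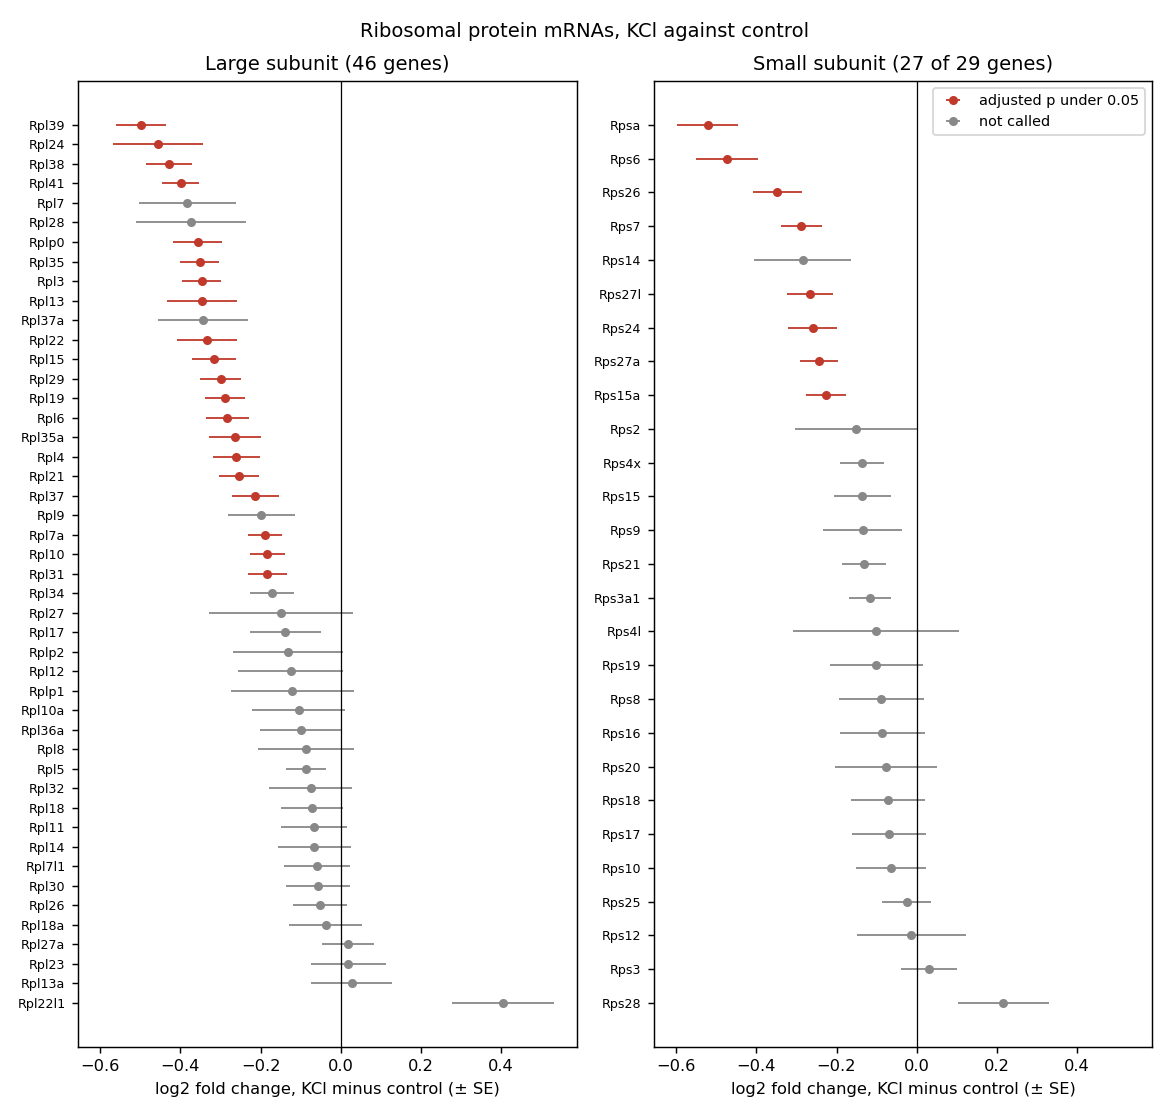
Log2 fold change, KCl minus control, with its standard error for the 46 large-subunit genes and 27 of the 29 small-subunit genes in the fit to all 6 libraries. Red points passed the adjusted threshold and grey points did not; the red points all lie below 0, between -0.52 and -0.18.

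As a share of all counts, the 75 genes held 1.94, 1.77 and 2.02% in KCl 1, 2 and 4, against 2.39, 2.18 and 2.12% in control 1, 2 and 4. The groups averaged 1.91 ± 0.125% in KCl and 2.23 ± 0.143% in control (SD, n = 3 each) and did not overlap, although KCl 4 and control 4 lay close together. The difference was -0.32 percentage points with all 6 libraries and -0.43 without number 4. Large-subunit genes held 1.01 ± 0.0642% in KCl and 1.18 ± 0.0728% in control, and small-subunit genes 0.901 ± 0.0608% in KCl and 1.05 ± 0.0704% in control (SD, n = 3 each). Of the large-subunit genes 20 of 46 were called lower (median log2 fold change -0.18), and of the small-subunit genes 9 of 29 (median -0.13); without number 4 those medians were -0.26 and -0.24. In bulk RNA, fewer cells of a type that carries much of this mRNA and less of it per cell cannot be told apart.

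**Figure D2:**
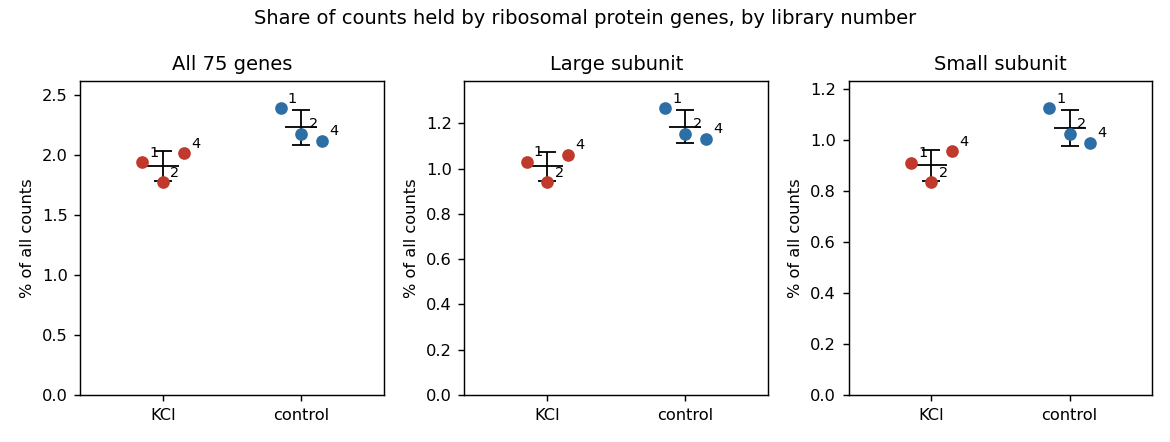
Percent of all counts held by the 75 ribosomal protein genes, and by those of each subunit, in each library, with the library number beside the point. Bars give the mean and SD of 3 libraries. The 3 KCl points lie below the 3 control points in every panel, and number 4 shows the smallest gap.

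Summed markers of several cell types differed between the groups, and those of others overlapped. For the counts of calls below, the shares over all genes tested were 12.4% higher and 10.5% lower. Summed neutrophil markers were 21690 to 28130 CPM in KCl libraries and 17650 to 19700 CPM in control libraries, with 5 of 16 called higher and 0 lower; 4 of those 5 calls remained without KCl 4. Summed dendritic cell markers were 3958 to 5169 CPM in KCl libraries and 5551 to 7499 CPM in control libraries, with 0 of 9 tested called higher and 5 lower, of which 2 remained without KCl 4. Monocyte markers summed to 2397 to 2581 CPM in KCl and 1597 to 1949 CPM in control libraries, with 4 of 8 called higher, 3 of them also without KCl 4. Eosinophil, basophil and mast cell markers summed to 1147 to 1352 CPM in KCl and 2524 to 2784 CPM in control libraries, with 5 of 11 called lower, all 5 of them also without KCl 4. Of these 11, 4 had a log2 fold change above 0, up to 1.15, with 0 called higher, and the median of the list was -0.10. Without both libraries of number 4, 0 neutrophil, 0 dendritic cell, 0 monocyte and 0 lymphocyte markers passed. In the eosinophil, basophil and mast cell list 3 did, in the macrophage list 1 and in the progenitor list 1. Lymphocyte markers summed to 121 to 159 CPM in KCl and 76.7 to 86.2 CPM in control libraries, with 2 of 7 tested called higher. Cd3d, Cd3e, Cd4 and Klrb1c were under 1 CPM in all 6. Other sums overlapped. Macrophage markers summed to 654 to 720 CPM in KCl and 526 to 659 CPM in control libraries (2 of 8 higher). Progenitor markers summed to 251 to 313 and 221 to 254 CPM (1 of 7 tested higher, 1 lower). Stromal and endothelial markers summed to 80.4 to 88.8 and 80.9 to 88.5 CPM (1 of 8 higher). The part of these shifts in the ribosomal protein result was not tested.

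The 5 genes with the lowest fold changes were Rpsa, Rpl39, Rps6, Rpl24 and Rpl38, and they sit on both subunits. Rpsa, a small-subunit protein also known as a laminin receptor, had 1295, 1121 and 1203 CPM in KCl 1, 2 and 4, against 1837, 1642 and 1717 CPM in control 1, 2 and 4. Each KCl library was well under each control library. Its log2 fold change was -0.52 ± 0.08 (SE; edgeR adjusted p = 0.00723), and -0.53 ± 0.12 (adjusted p = 0.0918) without number 4. The human gene is known for mutations that leave children without a spleen. Rps6, the small-subunit protein that S6 kinases phosphorylate below mTORC1, had 9.09, 8.22 and 8.69 CPM in KCl 1, 2 and 4, against 12.4, 11.7 and 12.003 CPM in control 1, 2 and 4. Groups again did not overlap, with a log2 fold change of -0.47 ± 0.08 (edgeR adjusted p = 0.00876), and -0.48 ± 0.14 (adjusted p = 0.112) without number 4. Its counts were few for a ribosomal protein gene, with a mean of 193 over the 6 libraries. Rps6 has 11 near copies, as defined below, of which 0 are rows of the count table. How its reads were divided was not tested.

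Rpl39, a small protein that lines the tunnel through which the new peptide leaves, had 41.5, 42.7 and 42.6 CPM in KCl 1, 2 and 4, against 63.6, 56.2 and 59.4 CPM in control 1, 2 and 4. The KCl values lay close together and below all control values. The log2 fold change was -0.50 ± 0.06 (edgeR adjusted p = 0.00485), and -0.51 ± 0.10 (adjusted p = 0.0789) without number 4. The value is that of the row of Rpl39 alone, and the copy Rpl39-ps, 99.3% identical to its coding sequence, held 60.1, 62.8 and 63.7% of the counts of the pair in KCl 1, 2 and 4, against 54.5, 56.8 and 52.5% in control 1, 2 and 4. Rpl39-ps itself stood at -0.05 ± 0.09, and with the copy added to Rpl39 the pair stood at -0.23 ± 0.07 and did not pass (edgeR adjusted p = 0.0577). How reads were divided between the rows was not tested, and the size of the difference for Rpl39 is uncertain.

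For Rpl24, a protein of the large subunit that bridges to the small one and is mutated in the Belly spot and tail mouse, the libraries had 213, 157 and 178 CPM in KCl 1, 2 and 4, against 262, 238 and 252 CPM in control 1, 2 and 4. Here KCl 2 was the lowest library and KCl 1 the highest of the KCl group, and no KCl library reached a control one. Its log2 fold change was -0.46 ± 0.11 (edgeR adjusted p = 0.0335), a call lost without KCl 2, KCl 4, control 1, control 2 or control 4. Rpl38, mutated in the Tail short mouse and known there for the translation of Hox mRNAs, had 27.9, 25.7 and 26.8 CPM in KCl 1, 2 and 4, against 36.2, 36.2 and 35.8 CPM in control 1, 2 and 4. All KCl libraries lay below all control libraries, at -0.43 ± 0.06 (edgeR adjusted p = 0.00572), and -0.44 ± 0.10 (adjusted p = 0.086) without number 4.

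**Figure D3:**
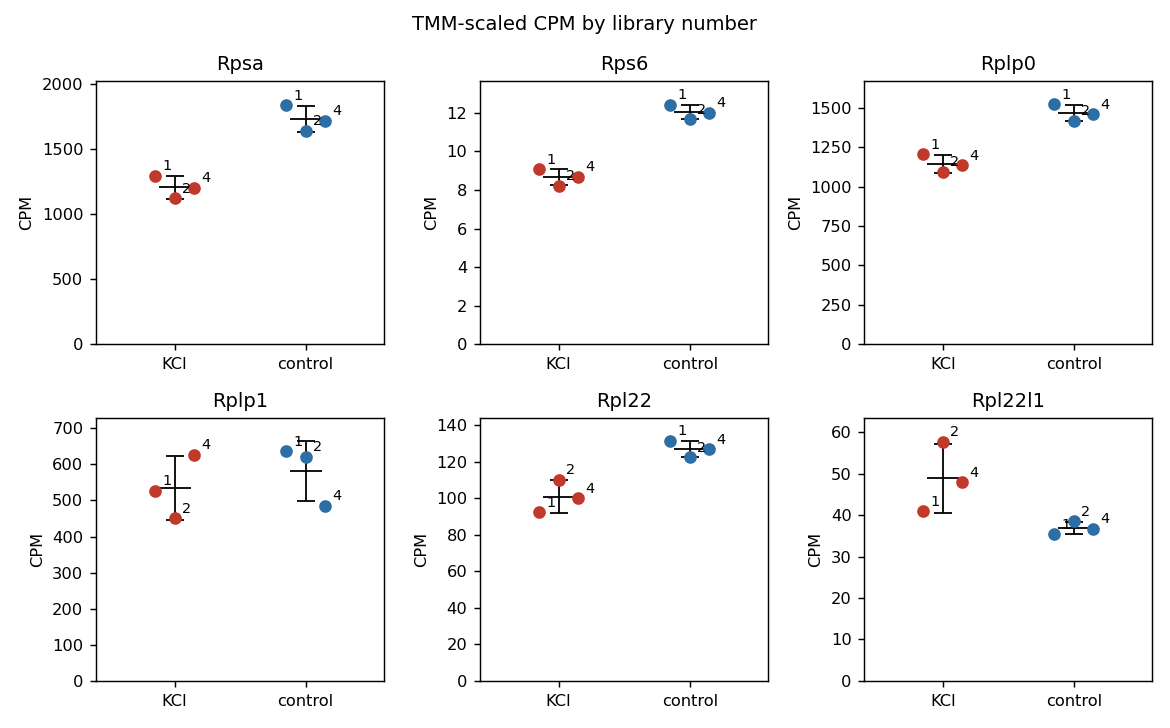
TMM-scaled CPM in each library, with its number, for Rpsa, Rps6, Rplp0, Rplp1, Rpl22 and Rpl22l1. Bars give the mean and SD of 3 libraries. Rpsa, Rps6, Rplp0 and Rpl22 have all KCl points below all control points, Rpl22l1 has them above, and Rplp1 has KCl 4 among the highest and control 4 among the lowest.

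Of the 29 genes called lower, 10 passed with each of the 6 libraries left out in turn: Rpsa, Rpl39, Rps6, Rpl38, Rpl41, Rpl35, Rps26, Rpl3, Rpl29 and Rpl19. Each of those fits still held KCl 4, control 4 or both. The log2 fold changes of these 10 genes ran between -0.52 and -0.29. The other 19 passed with all 6 libraries and not without KCl 4, and include Rpl24, Rplp0, Rpl13, Rpl22, Rpl15, Rpl6, Rpl35a, Rpl4, Rpl21, Rpl37, Rpl7a, Rpl10 and Rpl31 of the large subunit, and Rps7, Rps27l, Rps24, Rps27a and Rps15a of the small one. Their log2 fold changes ran between -0.46 and -0.18. Without both libraries of number 4, the log2 fold changes of Rpl24, Rps26, Rpl4, Rps27a, Rps27l and Rpl10 were -0.43, -0.34, -0.25, -0.24, -0.26 and -0.18, and adjusted p over the 29 ran from 0.0771 to 0.211. The 46 genes that did not pass ran from -0.38 (Rpl7) to 0.40 (Rpl22l1), with a median of -0.09, and 40 of them were below 0.

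At the other end of the order stood Rpl22l1, Rps28, Rps3, Rpl13a and Rpl23, none of which passed. Rpl13a, known in human monocytes as a part of the complex that silences inflammatory mRNAs, had 657, 610.4 and 692 CPM in KCl 1, 2 and 4, against 733, 594 and 595 CPM in control 1, 2 and 4. Control 1 was the highest library and the groups overlapped, at 0.03 ± 0.10 (edgeR adjusted p = 0.875). Rpl23, a large-subunit protein that can also bind MDM2, had 67.8, 56.1 and 67.7 CPM in KCl 1, 2 and 4, against 65.5, 64.9 and 58.5 CPM in control 1, 2 and 4, with overlap in the same way and a log2 fold change of 0.02 ± 0.09 (edgeR adjusted p = 0.905). The signs of Rps3, Rpl13a and Rpl23 turned below 0 without number 4, at -0.02, -0.07 and -0.08, and with upper-quartile scaling. Rps28 stood at 0.22 ± 0.11 (edgeR adjusted p = 0.253), and at 0.20 ± 0.16 (adjusted p = 0.444) without number 4.

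The stalk, formed by Rplp0 at its base with pairs of Rplp1 and Rplp2, recruits the translation factors to the large subunit. Rplp0 had 1206, 1094 and 1135 CPM in KCl 1, 2 and 4, against 1525, 1419 and 1458 CPM in control 1, 2 and 4. All KCl libraries were lower, at -0.36 ± 0.06 (edgeR adjusted p = 0.0107), and -0.36 ± 0.11 (adjusted p = 0.116) without number 4. Rplp1 had 527, 450.2 and 626 CPM in KCl 1, 2 and 4, against 636, 621 and 485 CPM in control 1, 2 and 4. In numbers 1 and 2 KCl was lower, and in number 4 KCl was higher than control. The 6-library log2 fold change was -0.12 ± 0.15 (edgeR adjusted p = 0.654), and -0.37 ± 0.11 (adjusted p = 0.112) without number 4. Rplp2 had 209.8, 202 and 261 CPM in KCl 1, 2 and 4, against 267, 262 and 207 CPM in control 1, 2 and 4. It showed the same crossing of number 4, with -0.13 ± 0.14 (edgeR adjusted p = 0.607) in all 6 libraries, and -0.36 ± 0.07 (adjusted p = 0.0788) without number 4. With all 6 libraries Rplp0 passed, and did not without KCl 4, while Rplp1 and Rplp2 did not pass. The difference between the 3 genes was not tested.

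Rpl5 and Rpl11 bind the 5S RNA, and free of the ribosome the pair is known to bind MDM2, the ubiquitin ligase of p53. Neither passed. Rpl5 had 50.5, 48.3 and 47.9 CPM in KCl 1, 2 and 4, against 52.4, 50.9 and 52.5 CPM in control 1, 2 and 4, with a log2 fold change of -0.09 ± 0.05 (edgeR adjusted p = 0.306). Rpl11 had 9.35, 8.45 and 9.24 CPM in KCl 1, 2 and 4, against 9.9, 9.3 and 9.11 CPM in control 1, 2 and 4, with -0.07 ± 0.08 (edgeR adjusted p = 0.649). Without number 4 their log2 fold changes were -0.07 and -0.11, nearer 0 than the median of the 75 genes. Rpl5 has 5 near copies and Rpl11 has 6, as defined below, and how reads were divided was not tested.

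The exit tunnel of the large subunit is lined and rimmed by several of the proteins. Of those that line the tunnel, Rpl4 and, on its own row, Rpl39 passed and Rpl17 did not. Rpl4 had 1342, 1269 and 1280.3 CPM in KCl 1, 2 and 4, against 1622, 1486 and 1554 CPM in control 1, 2 and 4, at -0.26 ± 0.06 (edgeR adjusted p = 0.0237), a call lost without KCl 2, KCl 4, control 1 or control 4. Of 5 proteins at the rim, where chaperones and the signal recognition particle dock, Rpl19, Rpl22, Rpl31 and Rpl35 passed and Rpl26 did not (-0.05). These groups, and the other groups by role, were drawn up after the values were known and were not tested as groups; of all 75 members 29 passed. Rpl3, which reaches toward the centre where the peptide bond forms, had 277, 262 and 271 CPM in KCl 1, 2 and 4, against 354, 339 and 338 CPM in control 1, 2 and 4. Every control value lay above every KCl value, at -0.35 ± 0.05 (edgeR adjusted p = 0.00589), and -0.36 ± 0.08 (adjusted p = 0.0827) without number 4.

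On the small subunit, Rps2 and Rps3 form the channel through which the mRNA enters. Rps2 had 636, 624 and 817 CPM in KCl 1, 2 and 4, against 842, 831 and 635 CPM in control 1, 2 and 4, and the KCl 4 value stood with the controls and the control 4 value with the KCl libraries. Its log2 fold change was -0.15 ± 0.15 (edgeR adjusted p = 0.593) with number 4 and -0.41 ± 0.08 (adjusted p = 0.0789) without. Rps3 had 752, 763 and 788 CPM in KCl 1, 2 and 4, against 821, 713 and 721 CPM in control 1, 2 and 4; the groups overlapped, at 0.03 ± 0.07 (edgeR adjusted p = 0.796). Rps27a, whose mRNA encodes ubiquitin fused to the ribosomal protein, had 54.3, 53.5 and 53.2 CPM in KCl 1, 2 and 4, against 62.0, 65.2 and 63.4 CPM in control 1, 2 and 4. The groups did not overlap, at -0.24 ± 0.05 (edgeR adjusted p = 0.0155), a call lost without KCl 4 or control 4.

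Members include 9 genes well known to be mutated in human Diamond-Blackfan anaemia, a failure of red cell production. Of the 9, 4 (Rps26, Rps24, Rps7 and Rpl35a) were called lower, against 29 of all 75 members and 10.5% of all genes tested. Rps19, the most often affected, had 221, 228 and 271 CPM in KCl 1, 2 and 4, against 285, 264 and 224 CPM in control 1, 2 and 4. Number 4 again ran the other way from numbers 1 and 2, and the log2 fold change was -0.10 ± 0.12 (edgeR adjusted p = 0.63), against -0.29 ± 0.08 (adjusted p = 0.105) without number 4. Rps26 had 279, 252 and 262 CPM in KCl 1, 2 and 4, against 351, 322 and 336 CPM in control 1, 2 and 4, all KCl libraries below all control libraries, at -0.35 ± 0.06 (edgeR adjusted p = 0.011). With its copy Rps26-ps1 added it stood at -0.49 ± 0.08 (edgeR adjusted p = 0.0112). In this anaemia the erythroid lineage is affected; summed erythroid and megakaryocyte markers here were 129 to 145 CPM in KCl libraries and 106 to 178 CPM in control libraries, with 0 of 4 tested called.

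A few members have a paralog or near relative, and in 1 such pair the ratio of counts did not overlap between the groups. Rpl22 had 92.2, 110.1 and 99.9 CPM in KCl 1, 2 and 4, against 131, 123 and 127 CPM in control 1, 2 and 4, at -0.33 ± 0.08 (edgeR adjusted p = 0.0245), and -0.33 ± 0.11 (adjusted p = 0.14) without number 4. Its paralog Rpl22l1, which in mice is known to rise when Rpl22 is lost, had 40.9, 57.7 and 48.0 CPM in KCl 1, 2 and 4, against 35.5, 38.5 and 36.8 CPM in control 1, 2 and 4. All 3 KCl libraries were above all 3 control libraries, as in 2688 of all 13326 genes tested. Rpl22l1 was the only such gene of the 75. The log2 fold change was 0.40 ± 0.13 and did not pass (edgeR adjusted p = 0.0698); it was 0.41 ± 0.18 (adjusted p = 0.207) without number 4, and it passed with KCl 1 left out. The call of Rpl22 was lost without KCl 4, control 1 or control 4. Counts of Rpl22l1 per count of Rpl22 were 0.444, 0.524 and 0.481 in KCl 1, 2 and 4, against 0.270, 0.314 and 0.290 in control 1, 2 and 4, with no overlap. Those ratios averaged 0.483 ± 0.0403 in KCl and 0.291 ± 0.0222 in control (SD, n = 3 each). They include the libraries of number 4, and their difference was not tested. Rpl22l1 has 2 near copies and Rpl22 has 1, as defined below, and how reads were divided was not tested.

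The other paralogs and near relatives showed no such pattern. Rps27l, which p53 is known to induce, had 60.1, 66.8 and 62.6 CPM in KCl 1, 2 and 4, against 75.1, 77.0 and 75.7 CPM in control 1, 2 and 4, and was lower at -0.27 ± 0.06 (edgeR adjusted p = 0.0197), a call lost without KCl 1, KCl 4, control 2 or control 4. Its partner Rps27 had too few counts to be a member. Rpl7l1 had -0.06 ± 0.08 (edgeR adjusted p = 0.679) and its relative Rpl7 -0.38 ± 0.12 (edgeR adjusted p = 0.0702). Rpl7l1 counts per Rpl7 count were 0.220, 0.245 and 0.274 in KCl 1, 2 and 4 and 0.183, 0.239 and 0.175 in control 1, 2 and 4. Those ranges overlapped. Rpl10, a protein that joins the large subunit late in its assembly, was lower at -0.18 ± 0.04 (edgeR adjusted p = 0.0295), and of the fits with a library left out it passed in that without KCl 2 alone. The pseudogene Rps4l stood at -0.10 ± 0.21 and its source Rps4x at -0.14 ± 0.06, and neither passed. Rpl3l, the form of Rpl3 known from muscle, and Rpl39l, the form of Rpl39 known from testis, had means of 12.3 and 3.50 counts over the 6 libraries, below the member minimum.

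Relative to the summed ribosomal protein counts of each library, which takes out a shift common to all 75 genes, 4 genes passed: 2 higher and 2 lower in KCl, against 23.4% of all genes tested under that scaling. The median was then 0.07 for the 75 genes and 0.20 for all genes tested. The scaling itself thus moves all genes away from 0, and the 23.4% is not a like background. By the edgeR test Rpl22l1 was higher at 0.61 ± 0.15 (adjusted p = 0.0266). Rps28, a small-subunit protein near the mRNA exit, was higher at 0.42 ± 0.12 (edgeR adjusted p = 0.0409). It had 51.1, 66.2 and 58.9 CPM in KCl 1, 2 and 4, against 55.4, 46.7 and 49.5 CPM in control 1, 2 and 4, with KCl 1 below control 1 and the other pairs the other way. Rpsa was lower at -0.32 ± 0.09 (adjusted p = 0.0348) and Rpl39 at -0.29 ± 0.08 (adjusted p = 0.0339) by the edgeR test; the value of Rpl39 is again that of its own row, without Rpl39-ps. Without both libraries of number 4 the count was 0, without KCl 2, control 1 or control 4 it was also 0, and without KCl 4 or control 2 it was 1. The other 71 genes did not pass.

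Number 4 divided the genes. KCl 4 was above control 4 in 32 of the 75 (42.67%), where over all genes tested the share was 51.2%. Of the 62 genes with KCl 1 and 2 both below control 1 and 2, the order was turned in number 4 in 24 (38.7%), against 42.8% of such genes over the whole table. None of the 32 genes was called, and of the other 43 genes 29 were. Without number 4, the medians of the 32 and the 43 were -0.22 and -0.26. The 32 include Rps2, Rplp1, Rplp2, Rpl8, Rps19, Rpl10a and Rps9, and the 43 include Rpsa, Rplp0, Rpl3, Rpl4 and Rps6. With number 4 the median was -0.07 for the 32 and -0.27 for the 43. Which genes passed the 6-library test therefore followed the order of KCl 4 and control 4, which is part of that same test.

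**Figure D4:**
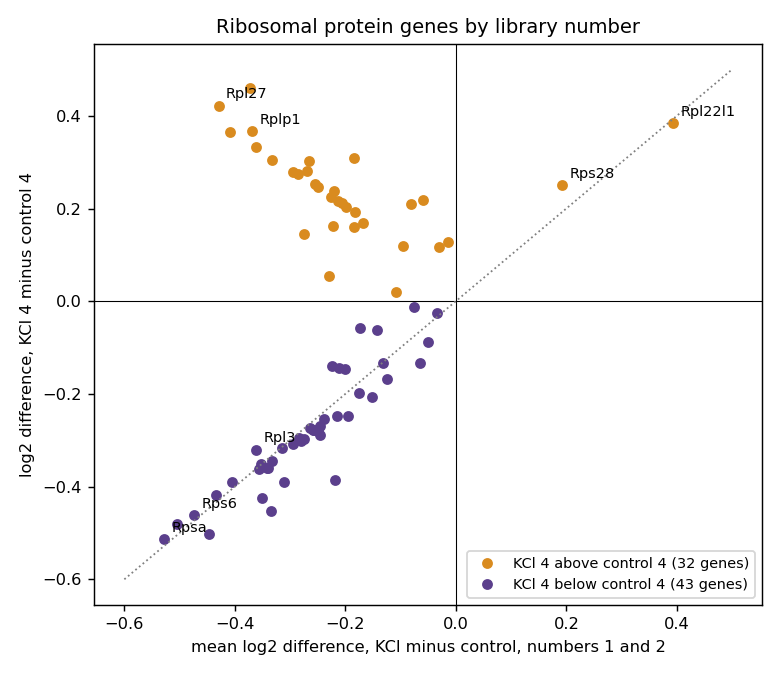
Log2 difference of KCl 4 minus control 4 against the mean log2 difference of numbers 1 and 2, for each of the 75 genes. The dotted line marks equal differences. The 43 purple genes lie near that line, while most of the 32 orange genes lie left of 0 on the horizontal axis and above 0 on the vertical axis.

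Counted levels differed widely between rows. Per kilobase of coding sequence, means over the 6 libraries ran from 12.7 CPM (Rpl9) to 4141 CPM (Rpl41), although the proteins are made in nearly equal numbers. Neither end need reflect the amount of mRNA. Counts of Rpl41 were divided by a coding sequence of 78 bases, where its longest transcript has 695. In the pair of Rpl9 and its near-identical copy Rpl9-ps6, the copy held 97.5% of the counts. The highest after Rpl41, which encodes the smallest of the proteins, were Rpsa (1656), Rplp1 (1618) and Rplp0 (1370), and the lowest after Rpl9 were Rps6 (13.8) and Rpl11 (17.2 CPM per kilobase). By the deposited FPKM the 3 highest were Rpl8 (1158), Rplp1 (1128) and Rpl4 (1003), and the 3 lowest were Rpl9 (0.675), Rpl11 (2.03) and Rpl28 (3.57). The deposited FPKM imply lengths of 447 to 11869 bases, beyond the longest annotated transcript in 59 of the 75 genes, so FPKM levels were not compared further. Rpl8, a large-subunit protein near the centre of the subunit, had 945, 869 and 1089 CPM in KCl 1, 2 and 4, against 1138, 1049.5 and 896 CPM in control 1, 2 and 4, and in number 4 the order was the reverse of that in 1 and 2.

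Ribosomal protein genes have many near-identical copies, and reads from a gene and its copy may be divided between them. A near copy, here an annotated sequence with at least 95% identity over at least 80% of the coding sequence, exists for 70 of the 74 genes with an annotated coding sequence, which leaves out Rps4l, with a median of 5 and at most 57. Median levels were 1007 CPM per coding kilobase in the 4 genes without a copy, 486.5 in 32 genes with 1 to 4, 253 in 23 genes with 5 to 9 and 186 in 15 genes with 10 or more. Across the 74 genes Spearman's rho between copies and level was -0.35, a description over genes that share libraries. The 29 genes called lower had a median of 7 near copies and the other 45 a median of 4. The rows of the copies held most counts of several pairs: 99.0% for Rpl23a-ps3 with Rpl23a, 98.7% for Rps27rt with Rps27, 97.5% for Rpl9-ps6 with Rpl9, 90.8% for Rpl27-ps3 with Rpl27, 64.3% for Rpl37rt with Rpl37 and 58.2% for Rpl39-ps with Rpl39. With the copies added, 29 members were again called lower by edgeR, of which Rpl27 (-0.27, adjusted p = 0.0146) had not passed on its own row (-0.15), while Rpl39 no longer passed and Rpl37 did (-0.21 with and without its copy). The low counts of Rpl23a, Rps27 and Rpl9 stand beside these copies; how reads were divided was not tested.

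Rpl9 and Rpl9-ps6 show how little separates a pair. Bases 236 to 295 of the coding sequence are printed for both (GENCODE M21, GRCm38), with the 1 base that differs over the whole 579 bases in capitals.
Rpl9: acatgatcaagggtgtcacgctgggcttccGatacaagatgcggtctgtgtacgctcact
Rpl9-ps6: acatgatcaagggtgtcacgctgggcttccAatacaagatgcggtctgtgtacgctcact
Rpl9 lies on chromosome 5 and Rpl9-ps6 on chromosome 19. Over the 6 libraries Rpl9 had a mean of 137 counts and Rpl9-ps6 a mean of 5268. Of 9 copies with a mean of at least 100 counts, 3 were called lower in KCl and none higher: Rps26-ps1 (-0.67, edgeR adjusted p = 0.0125), Rpl27-ps3 (-0.28, 0.0114) and Rpl37rt (-0.20, 0.0391). Over all genes tested, 10.5% were called lower. Without KCl 4 only Rps26-ps1 of the 3 copies still passed. Its source Rps26 was lower too.

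**Figure D5:**
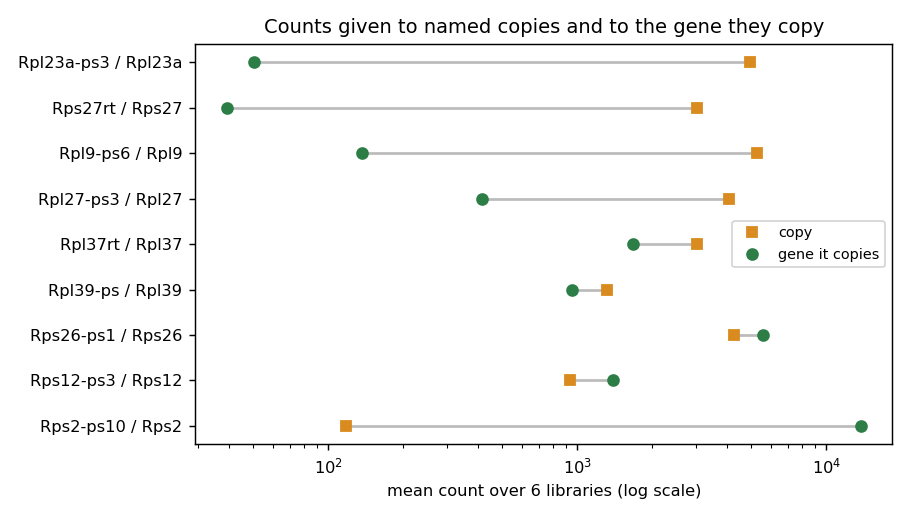
Mean count over the 6 libraries of 9 copies and of the genes they copy, on a log axis. For Rpl23a, Rps27, Rpl9, Rpl27, Rpl37 and Rpl39 the copy holds most counts, from 99.0% to 58.2% of the pair, and for Rps2 almost none.

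The starts of the genes were searched for runs of C or T, the letters of the tract that mTORC1 and LARP1 act through. A run was counted anywhere in the window, and for genes with several promoters the longest was taken. Such a run need not begin at the start, as the tract does. RefSeq (GRCm38.p6) promoters were matched for 57 of the 75 genes. In a window from 20 bases before to 15 bases after the start, a run of at least 8 C or T was found in 28 of 57 (49.1%), against 16.6% of 27025 genes in all, and of at least 5 in 47 (82.5%) against 57.3%. Of 24 called genes 15 had a run of at least 8 (62.5%), and of 33 others 13 (39.4%); these counts are a description. The windows of the 5 lowest and 5 highest genes by fold change are printed so that runs can be read beside values, 5′ to 3′, with the longest C or T run in capitals.
Rpsa: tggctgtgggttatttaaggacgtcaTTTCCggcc
Rpl39: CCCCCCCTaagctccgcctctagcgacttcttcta
Rps6: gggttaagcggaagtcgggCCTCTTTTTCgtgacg
Rpl24: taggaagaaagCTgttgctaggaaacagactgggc
Rpl38: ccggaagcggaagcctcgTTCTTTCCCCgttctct
Rpl22l1: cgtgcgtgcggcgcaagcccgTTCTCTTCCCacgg
Rps28: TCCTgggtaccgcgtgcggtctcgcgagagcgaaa
Rps3: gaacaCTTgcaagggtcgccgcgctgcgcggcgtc
Rpl13a: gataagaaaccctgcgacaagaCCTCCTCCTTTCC
Rpl23: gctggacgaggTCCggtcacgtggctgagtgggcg
The first 5 windows are those of Rpsa at chr9:120127746-120127780, plus strand, Rpl39 at chrX:37085208-37085242, minus strand, Rps6 at chr4:86857353-86857387, minus strand, Rpl24 at chr16:55966255-55966289, plus strand, and Rpl38 at chr11:114668560-114668594, plus strand. The last 5 are those of Rpl22l1 at chr3:28805488-28805522, plus strand, Rps28 at chr17:33824548-33824582, minus strand, Rps3 at chr7:99483695-99483729, minus strand, Rpl13a at chr7:45128731-45128765, minus strand, and Rpl23 at chr11:97782425-97782459, minus strand. Runs were 5, 8, 10, 2 and 10 bases in the lowest genes, and 10, 4, 3, 13 and 3 in the highest, so both ends of the order hold long and short runs. The run printed for Rpl39 lies before the annotated start. Which of these mRNAs carry the tract was not tested. The reverse complement of the ETS letters searched below, CTTCCGG, itself holds a run of 5 C or T. Over the 300-base promoters, on both strands, the ETS letters CCGGAAG were in 43.9% of members and 9.93% of all genes, the SP1 letters GGGCGG in 63.2% and 38.2%, the YY1 letters AAGATGG in 15.8% and 7.28%, the E-box letters CACGTG, which MYC is known to bind, in 10.5% and 8.09%, and the TATA letters TATAAA in 12.3% and 15.7%. A letter match is no binding site.

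Partners of the ribosomal proteins in translation were compared in the same fit. Of 24 translation genes whose mRNAs are known to carry the same tract or that act beside the ribosome, 14 were called lower and 0 higher by edgeR, with a median log2 fold change of -0.23, where 10.5% of all genes were called lower. Npm1, a nucleolar chaperone of ribosome assembly, had 380.3, 355 and 373 CPM in KCl 1, 2 and 4, against 594, 557 and 561 CPM in control 1, 2 and 4. The groups were far apart, at -0.63 ± 0.05 (edgeR adjusted p = 0.00259), and -0.65 ± 0.09 (adjusted p = 0.0617) without number 4. Hnrnpa1, an RNA-binding protein whose mRNA carries the tract, had 141, 136 and 140.0 CPM in KCl 1, 2 and 4, against 204, 199.96 and 197 CPM in control 1, 2 and 4, at -0.53 ± 0.04 (edgeR adjusted p = 0.00234). Eif2s3x, a subunit of the initiation factor that brings the first tRNA, was lower at -0.32 ± 0.05 (edgeR adjusted p = 0.00686). Eef1a1 (-0.36), the elongation factor that delivers tRNAs, and Pabpc1 (-0.23), which binds poly(A) tails, also passed, and Tpt1 (0.09), Eef1b2 (0.09) and Gnb2l1 (-0.03), the Rack1 scaffold of the small subunit, did not. Fau, which encodes a small-subunit protein fused to a ubiquitin-like one, stood at -0.05 ± 0.05 and did not pass. Of the 14 calls, 5 remained without KCl 4 (those of Npm1, Hnrnpa1 and Eif2s3x among them) and 0 without both libraries of number 4.

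Of 22 genes of mTORC1, MYC and other regulators, 4 were called lower and 0 higher, with a median of -0.02, where 22.9% of all genes were called in either direction. Sesn2, an inhibitor of mTORC1 in low amino acids and stress, was lower at -0.65 ± 0.10 (edgeR adjusted p = 0.00841), Eif4ebp1, which blocks cap-dependent initiation, at -0.43 ± 0.05 (adjusted p = 0.00375), and Rptor, the scaffold of mTORC1, at -0.31 ± 0.05 (adjusted p = 0.00767). The members named are thus both activators and inhibitors. Larp1 (-0.10), Mtor (-0.13) and Myc (-0.08) did not pass. Of 20 late assembly factors and dedicated chaperones, 6 were called lower and 0 higher, with a median of -0.13, against the same background. Of the 20, 19 were below 0, and the median without number 4 was -0.32. Gtpbp4, a GTPase of large-subunit assembly, was lower at -0.39 ± 0.06 (edgeR adjusted p = 0.00723), and Tsr1 and Ltv1, which leave the small subunit late, at -0.27 ± 0.05 and -0.26 ± 0.05 (adjusted p = 0.00946 and 0.0139). Of 12 genes of ribosomal stress and p53, 4 were called lower and 1 higher, with a median of 0.0096, where 22.9% of all genes were called. Of 76 mitochondrial ribosomal protein genes, which make the ribosome of mitochondria, 6 were called lower and 2 higher, 8 in all against 22.9% of all genes, with a median of -0.10. Of the 76, 67 were below 0, and the median without number 4 was -0.21. For the 75 cytosolic genes those values were 69 and -0.25, so a shift below 0 was not particular to them. Mrpl45 was higher at 0.39 ± 0.06 (edgeR adjusted p = 0.00826), and Mrpl30 and Mrps23 lower at -0.33 ± 0.06 and -0.24 ± 0.06 (adjusted p = 0.0117 and 0.0243). Without KCl 4, 3 of the 4 regulators, 1 of the 6 assembly factors (Gtpbp4), 2 of the 5 p53 genes and 1 of the 8 mitochondrial genes (Mrpl45) still passed. Without number 4, 0 genes of these lists passed.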

How the data were processed

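RNA was sequenced from 3 KCl and 3 control libraries. The submitters' processing notes name the mm10 build, the aligner HISAT2 (2.0.4), StringTie (1.3.3b) and edgeR; which program counted reads, and whether it used strand, is not given in the sources used here. The authors deposited whole-number counts per gene, with no normalization, and FPKM values, counts scaled by the authors to length and depth. Every count row was used, with edgeR 4.0.16 (limma 3.58.1, R 4.3.3): filterByExpr, TMM scaling, a robust quasi-likelihood fit, adjustment over all genes tested, and a threshold of 0.05. A second fit used the summed counts of the 75 genes as library size. The script was tested on simulated counts. The 75 genes, the lists and the alternatives were chosen with earlier results of these data known. Named genes were the paralog pairs, stalk genes and other genes known for disease or signalling, the 5 highest and 5 lowest members by fold change, the 3 highest and 3 lowest by FPKM, and up to 3 genes per list by p; Rps2 and other genes outside this rule were named after their values were seen. Some single genes are not reported here. Copies were found with blastn among GENCODE M21 genes. The alternatives were other scalings and filters, each library left out, the replicate number as a block, limma-voom, DESeq2 1.42.0, a batch term for number 4, and the sum of each copy with its gene.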

Additional observations from a re-analysis of the deposited data

How the results depend on the processing

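The count of 29 ribosomal protein genes was 28 to 31 when scaled by RLE, by upper quartiles or by library size, when the filter was dropped or set to a mean of 5 CPM, in limma-voom and with copies added to their genes, the last an alternative added after seeing the data. DESeq2 called 26, of which 1 was higher. It ranged from 10 to 25 with single libraries left out, lowest without KCl 4, and was 11 without control 4, 12 with a term for number 4 as a batch and 0 without both libraries of number 4; the last left 4 libraries. With the replicate number as a block it was 13, and the relative count was 1. Same-numbered libraries deviated with correlations of 0.0234, -0.0555 and -0.746. The average of KCl 4 and control 4 follows that of the other libraries, which by itself makes their deviations opposite. These correlations therefore cannot decide whether the numbers pair the samples, and the main fit did not take them to. Relative to the summed ribosomal protein counts, the main count of 4 was 3 with TMM over the members, 0 to 3 with single libraries left out, 0 without both libraries of number 4 and 1 with the batch term. The share held by the genes stayed lower in KCl under all 10 alternatives tried.

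Of 799 comparisons of 47 named genes under 17 settings, 680 kept direction and side of the threshold, 98 lost the call (that of Rpl39 among them, with Rpl39-ps added, at -0.23), 4 gained one and 17 changed sign. All 17 were of genes that did not pass. Rpl23 was -0.026 under upper-quartile scaling, -0.0017 with no filter, -0.033 to 0.10 with single libraries left out and -0.076 without number 4. Rpl13a was -0.018 under upper-quartile scaling, -0.026 to 0.13 with single libraries left out and -0.069 without number 4. Rps3 was -0.015, -0.0075 to 0.090 and -0.019 in the same order. Rps4l was -0.25 to 0.063 with single libraries left out. The cause was not tested. Upper-quartile scaling moved the median of all genes to -0.05, and the median of the 75 genes to -0.18.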

Other observations

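Small nucleolar RNA host genes, whose introns give rise to the guide RNAs that modify ribosomal RNA and several of which carry the same start tract, were also examined. Of 11 tested, 3 were lower in KCl and 0 higher, with a median log2 fold change of -0.22. Over all genes tested, 10.5% were called lower and 22.9% in either direction. Gas5 had 53.5, 45.0 and 49.7 CPM in KCl 1, 2 and 4, against 72.1, 78.1 and 74.4 CPM in control 1, 2 and 4, at -0.60 ± 0.08 (edgeR adjusted p = 0.00538). Snhg1 stood at -0.39 ± 0.07 (edgeR adjusted p = 0.0123) and Snhg3 at -0.65 ± 0.15 (edgeR adjusted p = 0.0255). Without KCl 4 only Gas5 of the 3 passed, and without both libraries of number 4 none did.

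Of 12 genes of ribosomal stress and p53, 4 were lower in KCl and 1 higher, where 22.9% of all genes were called in either direction. Of the 12, 6 had a log2 fold change above 0, and the median was 0.0096. Ccng1 was lower at -0.37 ± 0.06, Sesn2 at -0.65 ± 0.10, Bbc3 at -0.32 ± 0.06 and Cdkn1a at -0.25 ± 0.05 (edgeR adjusted p = 0.00756, 0.00841, 0.013 and 0.015), and Eda2r was higher at 0.50 ± 0.11 (edgeR adjusted p = 0.0197). Of the 5 calls, those of Ccng1 and Sesn2 remained without KCl 4, and 0 without both libraries of number 4. Known p53 targets went both ways: Ccng1, Bbc3 and Cdkn1a were called lower and Eda2r higher. Trp53 itself stood at -0.06 ± 0.10 and Mdm2 at 0.13 ± 0.13, and neither passed. Sesn2 is also counted among the mTORC1 regulators.

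Of the family rows under the member minimum, Rps29 averaged 1.54 CPM in KCl and 2.41 CPM in control libraries, and Rpl36 averaged 4.03 CPM in KCl and 5.11 CPM in control libraries; neither passed. Mitochondrially encoded genes held 3.43 ± 0.176% of counts in KCl and 4.38 ± 0.458% in control libraries (SD, n = 3 each), and with them left out of the total the share of the 75 ribosomal protein genes differed by -0.35 percentage points, KCl minus control.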
